A study of Homo sapiens with 6 samples.

Results

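The genes described here are 50 genes of DNA replication, the E2F transcription factors and repair in S phase, the phase of the cell cycle in which the genome is copied. They were taken by symbol from the 58735 named genes of the count table. All 50 passed the filter on low counts that left 14280 genes for testing. By role, 11 act in loading of the replicative helicase, 6 in its activation, 16 at the fork, 4 in nucleotide supply and 4 in the copying of chromatin. Another 4 are E2F factors and 5 act in homologous recombination and related repair.

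The libraries come from 8505C, a human cell line established from an anaplastic carcinoma of the thyroid, plated in 6-well plates and grown for 24 hours. Of the 6 libraries, 3 carry a control short hairpin RNA by their titles, although their genotype label reads wild-type, and 3 carry a hairpin against HHEX (genotype HHEX KD). HHEX encodes a homeobox transcription factor of thyroid development. All 6 are labelled untreated, and the labels do not give the hairpin sequence, the number of hairpins or clones, or the time since the hairpin was introduced. The design text calls the 3 per condition biological replicates, while their titles give 2 of the 3 in each group the same first replicate number. The table names the libraries control1 to control3 and KD1 to KD3, and which of them share that number cannot be told from the labels, so the tests treat all 3 as independent.

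Before S phase the origin recognition complex, CDC6 and CDT1 load the MCM2 to MCM7 ring onto DNA, and geminin blocks a second loading. CDC45 and the GINS complex then turn the ring into the working helicase, and PCNA, a sliding clamp placed by the RFC complex, holds the polymerases at the fork. Many of these genes are targets of E2F factors: E2F1 and E2F2 can activate them when the retinoblastoma protein lets go, and E2F7 and E2F8 repress them late in S phase.

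Total counts over named genes ran from 13333245 in control1 to 15144176 in control2. HHEX, the target, lay at 12.7, 12.8 and 12 CPM (counts scaled to library size with TMM factors) in the controls, at 14.8 in KD1, 7.94 in KD2 and 7.13 in KD3. The library labelled KD1 was thus not below the controls, against its label. The 95% Poisson intervals for counting error were 12.9 to 16.9 CPM in KD1 and 10.3 to 14.8 CPM over the 3 controls, which overlap. Those of KD2 (6.53 to 9.56 CPM) and KD3 (5.81 to 8.66) lay below the controls' intervals. HHEX was called in no comparison, with adjusted p of 0.527 between the groups and 0.541, 0.115 and 0.211 for KD1, KD2 and KD3 (edgeR). KD1 and KD2 were the closest pair of all (r = 0.989 over log2 CPM, mean chi-square per gene 7.20), closer than any pair of controls (r 0.982 to 0.985, chi-square 11.04 to 17.05). KD3 stood nearer to the controls (r 0.971 to 0.977) than to KD1 (0.955) or KD2 (0.956). Of the thyroid markers, TG, TSHR and SLC5A5 lay at or near 0 in all 6 libraries, while NKX2-1 (18 to 50.5 CPM), PAX8 (2.58 to 5.48) and FOXE1 (3.36 to 4.45) were present. Of the epithelial markers, KRT8 and KRT18 were at 325 to 1020 CPM and KRT7 at 371 to 736, while EPCAM (0.203 to 2.28 CPM), KRT19 (0 to 0.353) and CDH1 (0 to 0.0749) were low. LYZ, a leukocyte marker, had no count. The summed level of the 6 fibroblast markers was 42.2 to 54.9 CPM in the controls and 13.3 to 47.3 in the KD libraries. That of the 4 endothelial markers was 15 to 16.2 and 5.08 to 14.9 CPM, and that of the 5 leukocyte markers 2.99 to 4.72 and 3.04 to 4.25 CPM. KD3 gave the low end of the fibroblast and endothelial sums. Its COL3A1 was 9.96 CPM, against 36.5 in KD1, 40.9 in KD2 and 36.5 to 51.5 among controls. Its CDH5 was 2.61 CPM, where KD1 had 11, KD2 9.95 and the controls 10.3 to 10.9. NKX2-1 was also lowest there (18 CPM), with 38 in KD1, 35 in KD2 and 26.8 to 50.5 among controls. COL1A1 (2.61 CPM), PAX8 (3.6) and FOXE1 (4.45) were not lowest in KD3. The part of these markers in the results below was not tested.

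E2F motifs were looked for in the RefSeq promoters (build GRCh38.p14, 250 bases before to 50 after the start), of which 44 of the 50 genes had an entry. No entry was matched for E2F8, RPA2, RPA3, MCM4, MCM5 and GINS4. TTTCCCGC, TTTGGCGC or TTTCGCGC on either strand was present in 22 of the 44 (50%), against 763 of all 27305 promoters (2.79%). The first pair of these strings alone gave 18 (40.9%) against 2.31%. All 27305 promoters include those of genes not tested here. Among tested genes outside the 50, 455 held a match to any of the strings and 9706 did not. In 19 of the 22 a match began between 60 bases before and 30 after the start. CCAAT, the NF-Y motif, was found in 52.3% of the 44 against 35.7% of all promoters. The CHR strings TTTGAA or TTCGAA, linked to genes of mitosis, were found in 4.55% against 16.6%. The 6 promoters shown are, among those with a match, the ones of the most highly expressed genes, from 200 bases before to 30 after the start, 5′ to 3′ on the gene's strand. Capitals mark the E2F matches.
MCM7, chr7:100101368-100101597, minus strand: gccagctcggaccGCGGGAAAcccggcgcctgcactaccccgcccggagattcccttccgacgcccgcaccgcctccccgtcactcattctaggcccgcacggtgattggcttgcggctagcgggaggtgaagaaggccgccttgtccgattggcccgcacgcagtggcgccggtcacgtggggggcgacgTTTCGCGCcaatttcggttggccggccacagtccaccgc
DNMT1, chr19:10194924-10195153, minus strand: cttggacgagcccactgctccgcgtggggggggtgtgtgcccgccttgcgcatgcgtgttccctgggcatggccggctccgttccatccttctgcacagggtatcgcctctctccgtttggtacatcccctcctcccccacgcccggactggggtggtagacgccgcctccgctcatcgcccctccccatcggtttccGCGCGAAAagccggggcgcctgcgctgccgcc
MCM3, chr6:52284713-52284942, minus strand: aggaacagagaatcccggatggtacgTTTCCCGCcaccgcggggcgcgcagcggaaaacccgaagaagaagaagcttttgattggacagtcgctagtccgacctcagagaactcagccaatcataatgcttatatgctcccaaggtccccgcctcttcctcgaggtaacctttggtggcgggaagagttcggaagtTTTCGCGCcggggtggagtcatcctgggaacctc
PCNA, chr20:5126593-5126822, minus strand: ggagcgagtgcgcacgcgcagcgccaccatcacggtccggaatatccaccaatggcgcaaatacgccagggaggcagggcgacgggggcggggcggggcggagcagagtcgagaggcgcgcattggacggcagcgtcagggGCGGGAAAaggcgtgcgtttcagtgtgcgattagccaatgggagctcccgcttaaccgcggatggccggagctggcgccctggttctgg
MCM2, chr3:127598211-127598440, plus strand: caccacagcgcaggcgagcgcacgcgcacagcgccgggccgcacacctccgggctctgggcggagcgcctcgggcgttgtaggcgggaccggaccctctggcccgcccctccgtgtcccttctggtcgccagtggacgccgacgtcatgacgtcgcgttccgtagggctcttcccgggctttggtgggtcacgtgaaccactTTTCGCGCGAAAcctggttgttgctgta
UHRF1, chr19:4909301-4909530, plus strand: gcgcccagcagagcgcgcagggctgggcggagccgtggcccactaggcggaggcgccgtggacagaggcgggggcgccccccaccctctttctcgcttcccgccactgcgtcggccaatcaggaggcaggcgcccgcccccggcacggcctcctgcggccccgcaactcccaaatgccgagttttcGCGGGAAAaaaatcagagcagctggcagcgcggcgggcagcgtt

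In MCM7 and MCM3 one match lay close to the start and the other far upstream, at -9 and -187 in MCM7 and at -4 and -174 in MCM3. In MCM2 a pair of matches on opposite strands overlapped, beginning at bases 3 and 7 counted from the start. MCM6, not shown, held 4 matches in overlapping pairs, from 152 bases before the start. The capitals are letters found in a window, and binding was not measured.

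**Figure D1:**
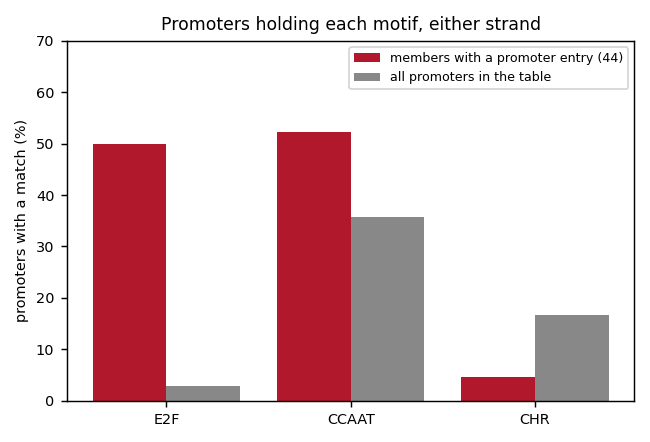
Percent of promoters that hold an E2F, CCAAT or CHR string on either strand, for the 44 of the 50 genes with a RefSeq promoter (red) and for all 27305 promoters (grey). The E2F strings were in 50% of the former and 2.79% of the latter.

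Compared as 2 groups of 3, none of the 50 genes passed an adjusted p of 0.05 (edgeR's quasi-likelihood test, Benjamini-Hochberg over all tested genes), where 0.105% of all tested genes were called higher and 0.077% lower. The log2 fold change was positive for 48 of the 50, with a median of 0.60 against -0.01 over all genes, and 20 had an unadjusted p under 0.05, as did 20.6% of tested genes. With 1 library left out that number was 3 without KD1, 2 without KD2, 47 without KD3, and 12, 3 and 5 without control1, control2 and control3. Only ORC1, PRIM2 and E2F7 were above every control in all 3 KD libraries, a pattern of 11.6% of tested genes. The KD libraries did not move together: KD1 and KD2 were high for nearly every one of these genes, and KD3 was within or below the controls for the other 47. In these bulk libraries, more cells in S phase and more RNA of these genes per cell cannot be told apart. DESeq2 called 8 of the 50 higher (3.22% of its tested genes), edgeR without the filter on low counts 20 (2.56%), and edgeR without KD3 46 (16.5%). Without KD1 or without KD2 the count was 0.

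Each KD library was therefore set against the 3 controls in 1 fit, in which a lone library is assumed to vary as the controls do and a call concerns that library, not the hairpin. In KD1, 41 of the 50 were higher and 0 lower, where 7.98% of all tested genes were higher and 7.43% lower. In KD2, 40 were higher and 0 lower, against 8.54% and 7.71%. In KD3, 0 were higher and 0 lower, against 0.77% and 0.336%. A total of 37 genes were called higher in both KD1 and KD2, and 44 in at least one of them. On the log2 scale the 50 genes had a median difference from the control mean of 0.93 for KD1, 0.85 for KD2 and -0.27 for KD3, beside -0.02, -0.02 and -0.01 over all genes. Each control's median, taken from the mean of the other 2 controls, was 0.08, 0.07 and -0.08.

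Summed over the 50 genes, the level was 3250, 3140 and 2980 CPM in the controls, 6070 in KD1, 5840 in KD2 and 2660 in KD3. KD1 lay above all 3 controls for 48 genes, as did 34.1% of tested genes, and KD2 for 49, as did 34.4%. KD3 lay below all 3 controls for 37 of the 50, as did 31.6% of tested genes, and 13 of its differences had an unadjusted p under 0.05, as did 14.1% of tested genes, though none passed adjustment. The 13 fell to 7 with DESeq2 and 8 without control3. DESeq2 called 1 of the 50 lower in KD3, where it called 0.791% of its tested genes lower.

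The KD libraries were also compared with each other. KD3 was lower than KD1 for 41 of the 50 (5.15% of tested genes were lower) and lower than KD2 for 40 (4.54%), and 39 passed in both. The medians of these differences were -1.22 and -1.17. Between KD2 and KD1 no gene of the whole table passed (0%), with 211 genes and 1 of the 50, BRCA2, at an unadjusted p under 0.05. HHEX and these genes followed different orders: KD2 and KD3 had the lower HHEX levels, while KD1 and KD2 had the higher replication levels. The HHEX differences passed no test, and a link between HHEX and these genes was not tested.

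**Figure D2:**
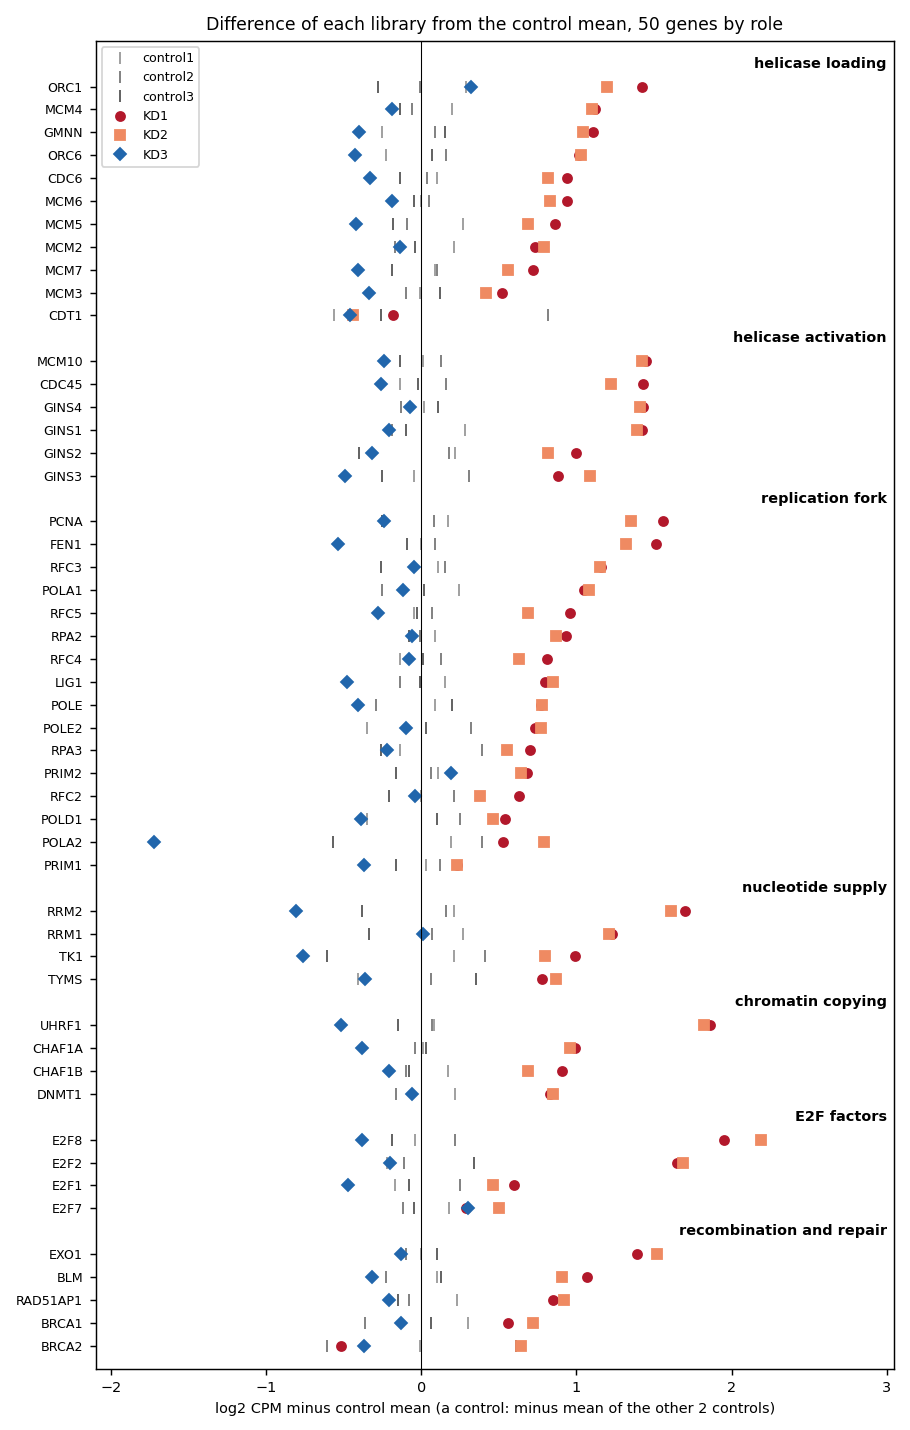
Difference of each library from the control mean in log2 CPM (horizontal axis) for the 50 genes by role, with red circles for KD1, orange squares for KD2, blue diamonds for KD3 and grey ticks for the controls. Each control is plotted against the mean of the other 2 controls. KD1 and KD2 lie to the right of the controls for nearly every gene, with CDT1 and BRCA2 as exceptions. KD3 lies to the left of the control mean for most genes, and its CPM was below that of all 3 controls for 37.

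Among the 11 helicase loading genes, 10 were higher in KD1 and 9 in KD2, with median differences of 0.94, 0.82 and -0.34 in KD1, KD2 and KD3. All 6 subunits of the MCM ring were higher in KD1 and 5 in KD2, and all 6 were below every control in KD3. MCM7 lay at 286, 287 and 251 CPM in the controls, 453 in KD1, 405 in KD2 and 206 in KD3. MCM4 lay at 190, 169 and 162 CPM, then 377, 372 and 152 in KD1, KD2 and KD3. MCM2 lay at 125, 104 and 111 CPM in the controls and at 188, 195 and 102 in the KD libraries.

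In each case KD1 and KD2 stood clear of the controls and KD3 lay below them. The log2 fold change of MCM4 in KD1 was 1.12 ± 0.15 (SE, adjusted p = 0.000617, edgeR), the highest of the 6 subunits. MCM3 had the smallest differences of the 6 in KD1 and KD2, at 229, 220 and 243 CPM in the controls against 330, 309 and 182 in KD1, KD2 and KD3, and was called in KD1 (adjusted p = 0.0397, edgeR) but not in KD2 (0.0824). MCM5 and MCM6 differed by 0.86 and 0.94 in KD1 and by 0.69 and 0.83 in KD2. Per kb of exon, the subunits were unequal in the control mean, from 9.12 CPM per kb for MCM5 to 62.6 and 63.2 for MCM7 and MCM3. These values depend on the summed length of all annotated exons of a gene, 7338 bases for MCM5 and 3650 for MCM3. The exons in use in these cells were not determined. Whether counting used strand is not stated, and 23.6% of the exon bases of MCM2 overlap genes on the opposite strand, so its counts are uncertain.

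ORC1, the largest subunit of the origin recognition complex, lay at 24.1, 20.9 and 18.5 CPM in the controls, 56.6 in KD1, 48.7 in KD2 and 26.3 in KD3. It was one of the few genes with every KD library above every control, and its log2 fold change between the groups was 1.05 ± 0.27 (SE, adjusted p by edgeR 0.114). ORC6, another subunit, and CDC6, the loading ATPase, differed by 1.02 and 0.94 in KD1, 1.03 and 0.82 in KD2 and -0.43 and -0.33 in KD3.

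CDT1, which brings the MCM ring to the origin, did not follow them. It lay at 47.2, 89.6 and 54.4 CPM in the controls and at 54, 45.1 and 44.6 in KD1, KD2 and KD3. The groups overlapped, control2 was the highest library, and the fitted difference was -0.24 ± 0.30 in KD1 and -0.50 ± 0.31 in KD2 (SE). GMNN, geminin, the inhibitor that binds CDT1, differed by 1.11, 1.04 and -0.40 in the KD libraries in order and was called higher in KD1 and KD2.

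All 6 helicase activation genes were higher in both KD1 and KD2, with median differences of 1.42, 1.30 and -0.25. GINS1 lay at 48.7, 39.2 and 40.8 CPM in the controls, 114 in KD1, 112 in KD2 and 37 in KD3. MCM10, which helps fire the loaded helicase, lay at 31, 32.7 and 28.8 CPM against 84.5, 82.8 and 26.1. GINS1 rose to 2.67-fold and 2.62-fold the control mean in KD1 and KD2, and MCM10 to 2.74-fold and 2.69-fold.

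The other GINS subunits rose too. GINS2 had 32.1, 31.5 and 24.1 CPM in the controls and 58.3, 51.3 and 23.2 in KD1, KD2 and KD3. For GINS4 the values were 15.9, 14.9 and 16.7 CPM and then 42.7, 42.3 and 15. For GINS3, the lowest per kb in the control mean (2.70 CPM per kb, against 10.5 for GINS1), they were 13.4, 15.8 and 12.2 CPM and then 25.4, 29.3 and 9.74.

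KD3 was thus below or within the controls for every GINS subunit. CDC45, the partner of GINS in the working helicase, differed by 1.43 in KD1, 1.22 in KD2 and -0.26 in KD3. GINS4 shares 23.6% of its exon bases, and GINS3 10.9%, with genes on the opposite strand.

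**Figure D3:**
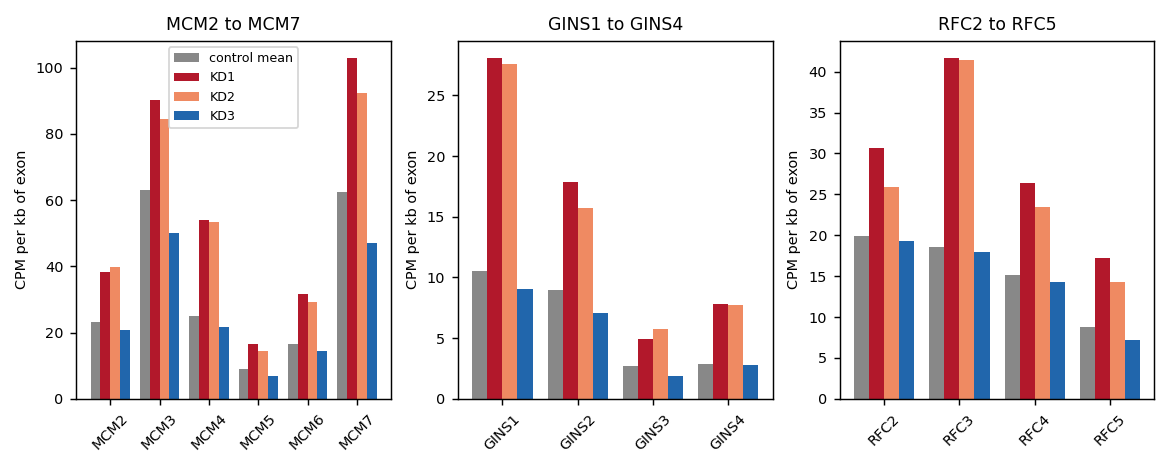
Level in CPM per kb of exon (vertical axes start at 0) of the MCM2 to MCM7 ring, the GINS complex and the RFC2 to RFC5 clamp loader subunits, as the control mean (grey, n = 3) and in KD1, KD2 and KD3 (1 library each, no error bar). Subunits of 1 complex differ in level per kb of all annotated exons, and KD1 and KD2 stand above the control mean for each subunit.

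Of the 16 fork genes, 12 were higher in KD1 and 11 in KD2, with median differences of 0.79, 0.78 and -0.23. PCNA had the highest mean level per kb of all 50 genes, 99.3 CPM per kb, and lay at 101, 97.2 and 83.5 CPM in the controls, 276 in KD1, 239 in KD2 and 79.1 in KD3. That was 2.94-fold the control mean in KD1 (edgeR adjusted p = 8.44e-05) and 2.54-fold in KD2 (0.000169). FEN1, the nuclease that trims Okazaki fragments, lay at 113, 117 and 108 CPM in the controls, 321 in KD1, 281 in KD2 and 77.3 in KD3. Between KD3 and KD1 its log2 difference was -2.05 ± 0.19 (SE, edgeR adjusted p = 8.28e-05).

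Both thus differed far more between KD libraries than among controls. LIG1, the ligase that seals the fragments, differed by 0.80 in KD1, 0.85 in KD2 and -0.48 in KD3. RPA2, a subunit of the single-strand binding protein, lay at 65.1, 62 and 60.2 CPM in the controls and 119, 114 and 59.7 in KD1, KD2 and KD3. Its partner RPA3 differed by 0.70 and 0.55 and was called in KD1.

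Clamp loader subunits moved by unequal amounts. RFC3 lay at 56.1, 57.3 and 47.3 CPM in the controls and at 120, 119 and 51.5 in KD1, KD2 and KD3. RFC4 and RFC5 differed by 0.81 and 0.96 in KD1 and 0.63 and 0.69 in KD2, and all these were called. RFC2 differed by 0.63 and 0.38 and was called in KD1.

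Polymerase subunits differed by unequal amounts. POLA1, the catalytic subunit of the priming polymerase, differed by 1.05 in KD1 and 1.08 in KD2, and POLE, that of the leading strand polymerase, by 0.77 and 0.78, all called. POLE2 (0.73 and 0.77) was called in KD2, and POLD1 (0.54 and 0.46), of the lagging strand polymerase, in neither. PRIM1, the catalytic primase subunit, lay at 19.1, 19.9 and 17.5 CPM in the controls and at 22.1, 22 and 14.5 in KD1, KD2 and KD3, with no call. PRIM2, its partner, lay at 53.8, 52.6 and 47.5 CPM and then 82.3, 80 and 58.5, the KD libraries all above the controls.

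POLA2, the accessory subunit of the priming polymerase, was the lowest of the 50 per kb. It lay at 4.42, 4.85 and 3.06 CPM in the controls, 5.87 in KD1, 7.08 in KD2 and 1.13 in KD3. Its fitted log2 difference in KD3 was -1.85 ± 0.48 (SE), the lowest of the 50, with an edgeR adjusted p of 0.108. As 35.1% of its exon bases are shared with another gene on the same strand, and 21.6% of those of PRIM1 with other genes, both are uncertain.

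Among the 4 nucleotide supply genes, 3 were higher in KD1 and in KD2, with median differences of 1.11, 1.04 and -0.56. RRM2, the ribonucleotide reductase subunit made in S phase, lay at 59.9, 58.5 and 45.6 CPM in the controls, 177 in KD1, 166 in KD2 and 30.9 in KD3. It was 3.24-fold, 3.04-fold and 0.566-fold the control mean, and its KD3 value did not pass (log2 -0.82 ± 0.20, SE, edgeR adjusted p = 0.0785). RRM1, the larger subunit, lay at 178, 162 and 134 CPM against 368, 363 and 157.

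TK1, thymidine kinase, lay at 66.9, 73.3 and 45.7 CPM in the controls, 121 in KD1, 106 in KD2 and 35.7 in KD3. So KD3 was the lowest library for RRM2 and TK1 but sat among the controls for RRM1. TYMS, thymidylate synthase, lay at 3.82, 4.79 and 5.48 CPM and then at 8.1, 8.59 and 3.6, with no call. Since 46.6% of the exon bases of TYMS overlap ENOSF1 and TYMSOS on the opposite strand, and 20.2% of those of RRM2 overlap another gene, their counts are uncertain.

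**Figure D4:**
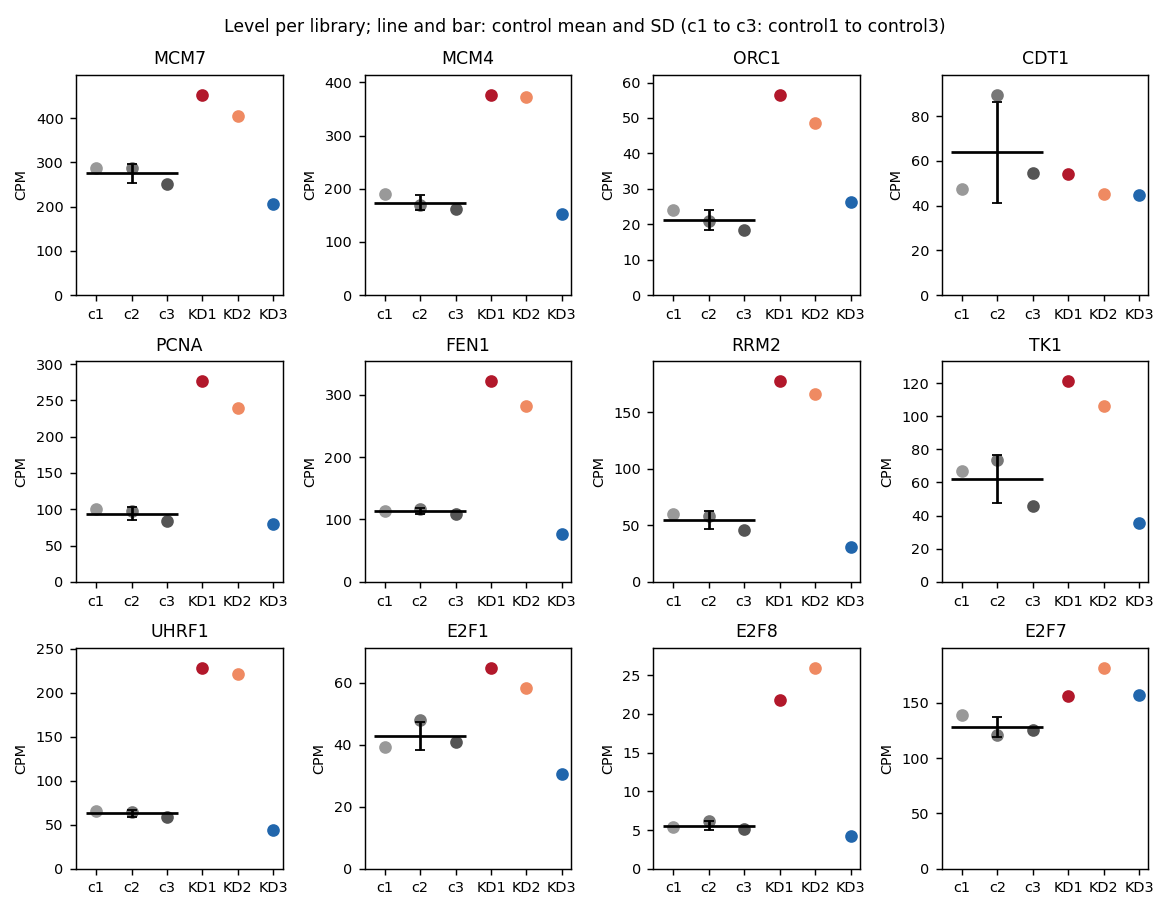
Level in CPM (vertical axes start at 0) of 12 of the genes in each library, with the control mean and SD (n = 3) as a line and bar. KD1 and KD2 stand above the controls except for CDT1, and for E2F7 the 3 KD libraries lie between 156 and 181 CPM, above controls at 121 to 139.

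Genes of chromatin copying were all higher in KD1 and KD2 (4 of 4), with median differences of 0.95, 0.91 and -0.29. UHRF1, which reads half-methylated DNA behind the fork, lay at 65.3, 64.9 and 58.7 CPM in the controls, 228 in KD1, 222 in KD2 and 43.8 in KD3. It was 3.63-fold and 3.53-fold the control mean in KD1 and KD2 (edgeR adjusted p = 3.32e-05 and 4.21e-05). DNMT1, the maintenance DNA methyltransferase that UHRF1 recruits, moved less, with 257, 216 and 226 CPM in the controls against 412, 420 and 223.

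In KD3, UHRF1 was below and DNMT1 within the controls. CHAF1B, a subunit of the histone chaperone that loads onto new DNA, lay at 27.5, 24.2 and 24.5 CPM and then 47.8, 40.9 and 22. Its partner CHAF1A differed by 0.99, 0.96 and -0.38.

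The 4 E2F factors split. E2F8, a late repressor, had the highest difference of the 50 in both libraries: 5.46, 6.18 and 5.09 CPM in the controls, 21.8 in KD1, 25.9 in KD2 and 4.24 in KD3. That was 3.91-fold and 4.64-fold the control mean (edgeR adjusted p = 0.000252 and 0.000112). E2F2, an activator, differed by 1.65 in KD1, 1.69 in KD2 and -0.20 in KD3. E2F1, the other activator, moved less, at 39.3, 47.8 and 41 CPM in the controls and 64.6, 58.4 and 30.6 in KD1, KD2 and KD3, and was called in KD1.

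E2F7, the paralog of E2F8, lay at 139, 121 and 125 CPM in the controls, 156 in KD1, 181 in KD2 and 157 in KD3. Here KD3 was above the controls and beside KD1. The call was made in KD2 (log2 0.50 ± 0.15, SE, edgeR adjusted p = 0.0429), and KD3 differed from KD1 by 0.02 ± 0.19. Per kb, the control mean of E2F7 was 20.3 CPM per kb and that of E2F8 1.35.

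Of the 5 recombination and repair genes, 3 were higher in KD1 and 4 in KD2, with median differences of 0.85, 0.91 and -0.21. EXO1, a nuclease that resects DNA ends, lay at 36.2, 34.4 and 37.8 CPM in the controls, 95.1 in KD1, 104 in KD2 and 33 in KD3. RAD51AP1, an accessory factor of homologous recombination, lay at 36.4, 31.5 and 30.5 CPM against 58.9, 62 and 28.3. BLM, a helicase that undoes recombination intermediates, differed by 1.07, 0.91 and -0.32.

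For EXO1 and RAD51AP1, KD1 and KD2 were clear of the controls and KD3 was below them. BRCA1, which acts early in recombination, lay at 85.9, 63.4 and 77 CPM in the controls and 111, 124 and 68.4 in KD1, KD2 and KD3, called in KD2. BRCA2, which acts in homologous recombination, was the exception: 20.8, 15.8 and 27.8 CPM in the controls, 14.5 in KD1, 32.6 in KD2 and 16.1 in KD3. Here KD1 was the lowest of the 6 libraries and KD2 the highest, and no contrast passed.

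**Figure D5:**
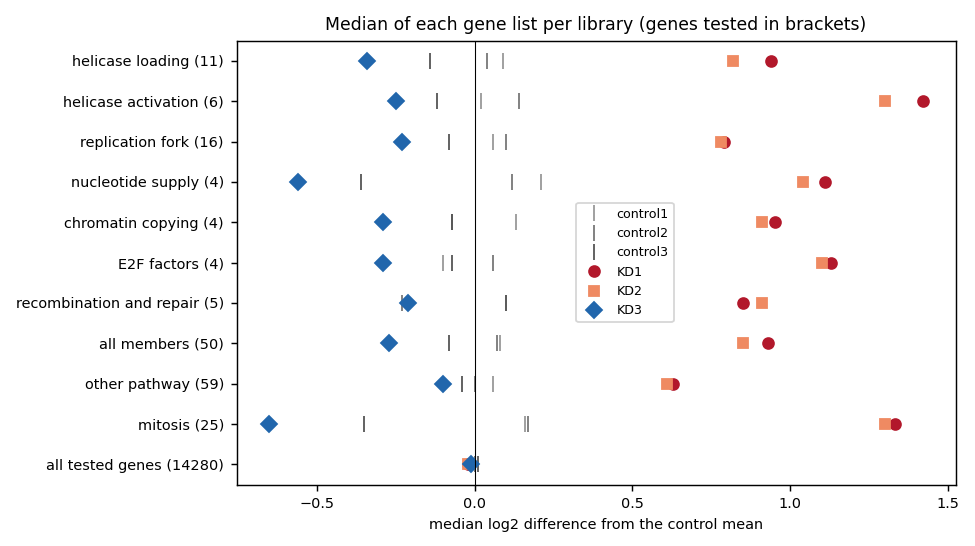
Median log2 difference from the control mean (horizontal axis) of each role, of all 50 genes, of 59 other replication and repair genes, of 25 mitosis genes and of all 14280 tested genes, per library. KD1 and KD2 medians lie between 0.78 and 1.42 for the roles and at -0.02 for all genes.

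The medians of genes with and without an E2F match lay close together. The 22 with a match had median differences of 0.85, 0.84 and -0.33 in KD1, KD2 and KD3, and the 22 without one had 0.97, 0.85 and -0.27. Among tested genes outside the 50, the 455 with a match had medians of 0.08, 0.08 and 0.01, and the 9706 without a match 0, 0 and 0.

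A wider list of 60 further genes of replication, E2F control and repair showed the same direction at smaller size. Among the 59 tested, 35, 36 and 0 passed as higher in KD1, KD2 and KD3, against 7.98%, 8.54% and 0.77% of all tested genes. None was lower in any of the 3 (7.43%, 7.71% and 0.336% of all), and the medians were 0.63, 0.61 and -0.10. None was called between the groups, where 22 had an unadjusted p under 0.05, against 20.6% of all tested genes. CCNE2, cyclin E2, which drives entry into S phase, had 11.9, 8.71 and 10.5 CPM in the controls and 35.6, 35.3 and 12.5 in KD1, KD2 and KD3. CDC25A, the phosphatase that activates its kinase, lay at 16, 15.3 and 17.2 CPM against 55.4, 54.7 and 18.4.

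For both, every KD library exceeded every control, KD3 by little. CLSPN, claspin of the fork checkpoint, rose most, at 25.4, 18.4 and 19.1 CPM in the controls against 75.4, 87.2 and 23.1. TOPBP1, a checkpoint scaffold, lay at 128, 112 and 119 CPM and then at 206, 219 and 139.

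The list also held genes with another pattern. E2F5, an E2F linked to quiescent cells, was at 16.8, 22.6 and 23.7 CPM in the controls. It was at 13.4 CPM in both KD1 and KD2 and at 19.5 in KD3, with no call. E2F6, a repressor not bound by the retinoblastoma protein, lay at 23.4, 23.6 and 21.4 CPM in the controls. All 3 KD libraries were above these, at 26.2 in KD1, 26.7 in KD2 and 29.9 in KD3, the highest, with no call. TIMELESS, a fork protection factor, lay at 62.4, 58.9 and 59.1 CPM in the controls, 75.7 in KD1 and 86.9 in KD2, and passed as higher in KD2. It was lowest in KD3, at 34.7 CPM (log2 difference -0.79), and was not called there.

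Of 25 mitosis genes, 22 were higher in KD1 (7.98% of all tested genes) and 23 in KD2 (8.54%), and 1 was lower in KD3 (0.336%), with medians of 1.33, 1.30 and -0.65. CENPE, a kinetochore motor, was not high in KD1, at 36.2 CPM against 57.3, 23.1 and 57.3 in the controls, and was not called there. CENPF, at 1.28-fold the control mean in KD1, and NUSAP1, at 0.878 CPM in KD1, were not called in that library either. Their promoters differed in motif: E2F strings were in 15% and CHR strings in 75% of the 20 with an entry. The wider replication list had 28.6% and 8.16% of 49.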

How the data were processed

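RNA was isolated with Trizol and made into libraries with TIANSeq kits that capture mRNA, per the labels' protocols. The authors deposited raw counts per gene. For strand use, aligner and build, the entry is: not given in the sources used here. Start and end of 58683 of 58735 named genes equal GENCODE 29 (GRCh38), which gave exon lengths. A further 998 rows without a gene name (0.239% to 0.298% of counts) and 6 columns in another unit were left out. Column names give a library's group, not its replicate label.

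Genes passing filterByExpr were tested with edgeR 4.0.16 in R 4.3.3 (TMM, glmQLFit with robust estimation, glmQLFTest, Benjamini-Hochberg, threshold 0.05): between the groups, and with each KD library as its own level (2 residual degrees of freedom, from the controls). Differences are log2 CPM with a prior count of 2. Poisson intervals cover counting error only, as each rests on the count of 1 library, with no correction by molecular identifiers made here. The scripts were tested on simulated data. The replicates' separate origin is stated in the design text alone, so p-values measure only how these libraries scatter, which may be technical. DESeq2 1.42.0 and other scalings, filters and left-out libraries were tried.

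The genes and lists were chosen with earlier results of these data known. Every library's value is given for HHEX; within each role for the 2 genes highest per kb (4 in roles of over 8) and those with the highest or lowest difference in each KD library; and likewise for the wider list, with its 3 smallest p-values. Some genes of the lists are not reported here by name.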

Additional observations from a re-analysis of the deposited data

How the results depend on the processing

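The count of genes higher between the groups depended on the setting. It was 0 in the main test, 8 with DESeq2, 20 without the filter on low counts, and 0 to 46 when 1 library was left out, where the 46 came without KD3 (log2 medians 0.60 with and 0.90 without it). Over all genes that leave-out gave 2438 higher and 2237 lower in place of 15 and 11, and no filter gave 724 and 635. The genes lower in KD3 numbered 0 in the main test, 3 without the filter, 1 with DESeq2 and 2 to 3 with 1 control left out. Leaving out 1 control gave 0 to 1 lower in KD1 (1 without control2), 0 to 1 lower in KD2 (1 without control1) and 0 to 1 higher in KD2 than in KD1 (1 without control2). Near 0, 3 genes changed sign between the groups: PRIM1 was at -0.01 with upper-quartile scaling and between -0.04 and 0.25 with 1 library left out, POLA2 between -0.22 and 0.68, and BRCA2 between -0.48 and 0.20. Upper-quartile scaling moved the median of all genes to -0.105 in KD1 and -0.118 in KD2, and split all calls in KD2 into 918 higher and 1316 lower (1220 and 1101 in the main test), while the 50 gave 38 and 36 higher. The counts of the 50 higher in KD1, in KD2, in both or in either, and lower in KD3 than in KD1, in KD2 or in both, stayed within 1.5 times the main count under every alternative run; leaving out control3 gave the lowest count higher in KD2 (30) and in both (28). No paired analysis was possible because the columns carry no replicate label. At these depths 3 counts equal 0.198 to 0.225 CPM.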

Other observations

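The counts of histone genes taken by symbol did not move with the replication genes. The RNA of replication-dependent histone genes is made in S phase and mostly lacks a poly(A) tail. As the kits capture mRNA, how far these counts follow RNA without a tail cannot be told. This list, all genes whose symbol begins with HIST, was chosen after the values were seen. It was not limited to replication-dependent genes. Summed over all its 89 genes, of which 25 were tested, the level was 222, 245 and 219 CPM in the controls. It was 96.1, 94.5 and 97.9 in KD1, KD2 and KD3. The 3 KD libraries were thus alike and below every control here. The median log2 differences of the 25 tested were -1.11, -1.24 and -1.13. Of these, 2 were called lower between the groups (0.077% of all tested genes), 8 in KD1 (7.43%), 11 in KD2 (7.71%) and 4 in KD3 (0.336%). These counts describe a list picked for its values.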
